A study of Danio rerio with 6 samples.

Results

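The genes described here are 47 photoreceptor and retina genes of the zebrafish: the visual opsins, the phototransduction cascade, transcription factors of photoreceptors and retina, the retinoid cycle, and 3 genes of photoreceptor discs and melatonin synthesis. They were chosen by name, with earlier results of these data known, and each was looked up by its exact name. Of the 47 genes, 32 were found among the 23025 genes of the deposited table and 21 had enough counts to be tested with 20463 genes in all. No row was found under the names *opn1sw1*, *opn1mw1*, *opn1mw2*, *opn1lw1*, *exorh*, *gnb3b*, *gngt1*, *arr3b*, *grk1b*, *rcvrn2*, *rcvrn3*, *guca1a*, *guca1b*, *guca1c* and *prph2a*, and these 15 genes were not analysed under those names.

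The series compared hindbrains of *gas6* homozygous mutant embryos with hindbrains of wildtype control embryos, to ask how loss of *gas6*, a secreted ligand of TAM receptor tyrosine kinases, affects the developing hindbrain. The mutants carried CRISPR-induced frameshift deletions in the first exon of *gas6* (which of the alleles was in these libraries is not given in the sources used here), and both mutants and controls carried the *Tg(olig2:EGFP)* transgene, whose GFP signal guided the dissection at 48 h post fertilization. Each of the 3 libraries per genotype was made from polyA RNA of a pool of hindbrains from embryos kept in egg water with no other treatment named. The mutants came from a homozygous line of their own, so genotype and line cannot be told apart.

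Photoreceptors are neurons that turn light into an electrical signal, and in fish they lie in the retina and in the pineal organ. Light activates an opsin, the opsin activates the G protein transducin, and transducin activates a phosphodiesterase that breaks down cGMP and so closes cGMP-gated channels. Kinases and arrestins then silence the opsin, guanylate cyclases restore cGMP, and the retinoid cycle returns the vitamin A-derived chromophore to its light-sensitive form. Rods and cones use separate paralogs of many of these proteins, and transcription factors such as Crx and the rod factors Nrl and Nr2e3 are made before most of the cascade. The retina and pineal organ are derivatives of the forebrain, not of the hindbrain.

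Total counts were 18376627 to 27025868 per mutant library and 21844559 to 24589101 per wildtype library. The labels were checked with *gas6* itself, which had 105, 153 and 117 counts in mutants against 941, 898 and 790 in wildtype (log2 fold change -2.97, SE 0.14, adjusted p = 7.24e-08). All 9 hindbrain markers examined, among them *egr2b*, *mafba* and *hoxb1a*, were present in all libraries, with summed levels of 813 to 889 CPM (counts scaled to library size) in mutants and 977 to 1188 CPM in wildtype. Labels do not say that the pools came from separate clutches, so p-values measure only the spread between these libraries, which may be technical.

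Many photoreceptor and retina genes were higher in the *gas6* mutant libraries, and a few were lower. Among the higher members were the photoreceptor transcription factors *crx*, *otx5* and *nr2e3*, the rod opsin *rho* and the transducin beta subunit *gnb3a*. When all listed genes were tested without a filter on low counts, 14 of the 32 members (43.8%) were called higher in mutants at an adjusted p under 0.05 (edgeR), against 15.0% of all 23025 genes. In the same fit 4 members (12.5%) were called lower, against 15.4% of all genes, and 14 were not called. The median log2 fold change of the 32 members was 1.53 (1.47 when genes with no library of one genotype above 3 counts were placed at their bound), against 0.01 for all genes.

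With the filter, which is the setting used for single genes from here on, 10 of the 21 tested members were called higher (47.6%, against 16.7% of all genes tested) and 3 were called lower (14.3%, against 16.6%). The remaining 8 were not called. More than 2-fold changes were found in 9 of the higher members and 2 of the lower, against 6.06% and 3.59% of all genes tested. The median was 0.99 over the tested members and 0.02 over all genes tested. These filtered counts favour the higher direction: *rho*, *gngt2a*, *sagb*, *nr2e3*, *rx2* and *rlbp1a* passed the filter only through the mutant libraries and 5 of these 6 were called higher, while *gc3* passed only through wildtype. Independently of any model, the 3 CPM values of mutants lay above all 3 of wildtype for 17 of the 32 listed members and below them for 6, against 23.8% and 22.9% of all genes. For the other 9 the ranges overlapped.

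**Figure D1:**
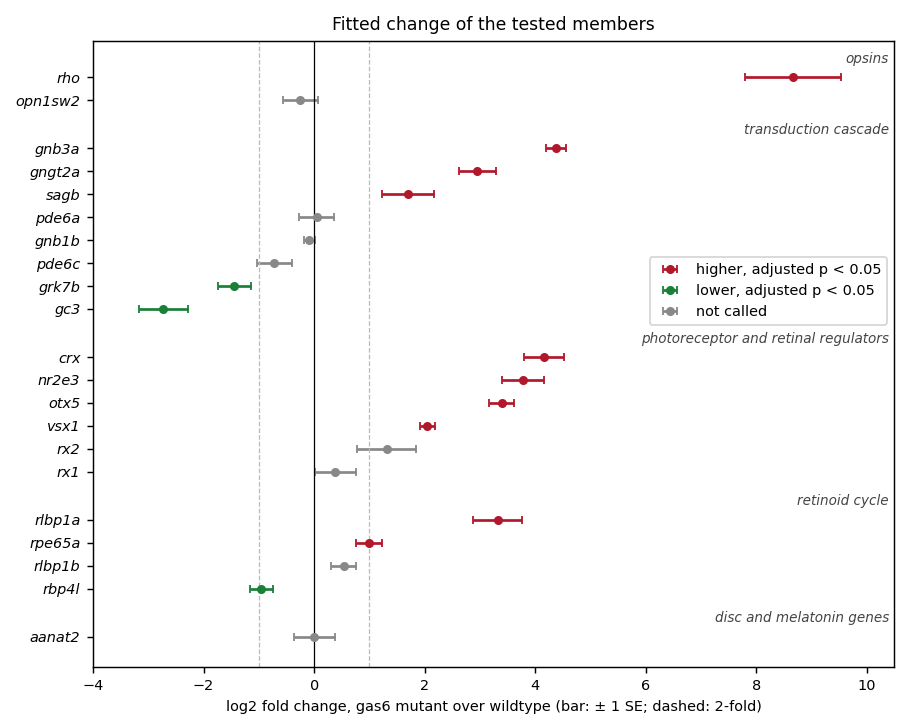
Fitted log2 fold change (x axis, *gas6* mutant over wildtype) of the 21 tested members by role, with bars of 1 SE, red points for members called higher, green for members called lower and grey for members not called. *crx*, *otx5*, *nr2e3* and *gnb3a* lie above 3, *rx1* and *rx2* are not called and have bars of 0.37 and 0.53, *gc3* and *grk7b* sit to the left, and the fitted position of *rho* depends on the prior count because all wildtype libraries were at 0.

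Opsins are the light receptors themselves. *rho*, which encodes the rod opsin rhodopsin, had 58, 62 and 36 counts in the mutant libraries and 0, 0 and 0 in the wildtype libraries. It was thus detected in every mutant library and in no wildtype library. Set against a floor of 3 counts over the wildtype libraries, *rho* was 46.4-fold higher in mutants (adjusted p = 7.06e-05, edgeR). This fold takes the mutant counts as exact, so it is not a lower limit. The mutant level was 2.15 ± 0.82 CPM (SD, n = 3). At these depths the level is low, and a count of 0 limits the wildtype level without showing that it was absent. In bulk tissue, more cells of a type and more RNA per cell cannot be told apart, here and for every gene below.

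Neither listed cone opsin was called. *opn1sw2*, a short-wavelength cone opsin, had 17, 25 and 15 counts in mutants and 17, 25 and 19 in wildtype. The ranges overlapped, and its log2 fold change of -0.25 (SE 0.31) was not called (adjusted p = 0.57, edgeR). The gene names used here list *opn1sw2* also as an older name of *opn1sw1*, so which of the short-wavelength opsins this row counts is uncertain. *opn1lw2*, a red cone opsin, had 6, 2 and 2.3 counts in mutants against 1, 1 and 0 in wildtype. That is a ratio of 4.46 after scaling by library size, with a 95% exact counting interval of 0.951 to 41.9. It was too low to pass the filter and was not called without it (adjusted p = 0.17). Whether *rho* and the cone opsins differed from each other in their response was not tested.

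**Figure D2:**
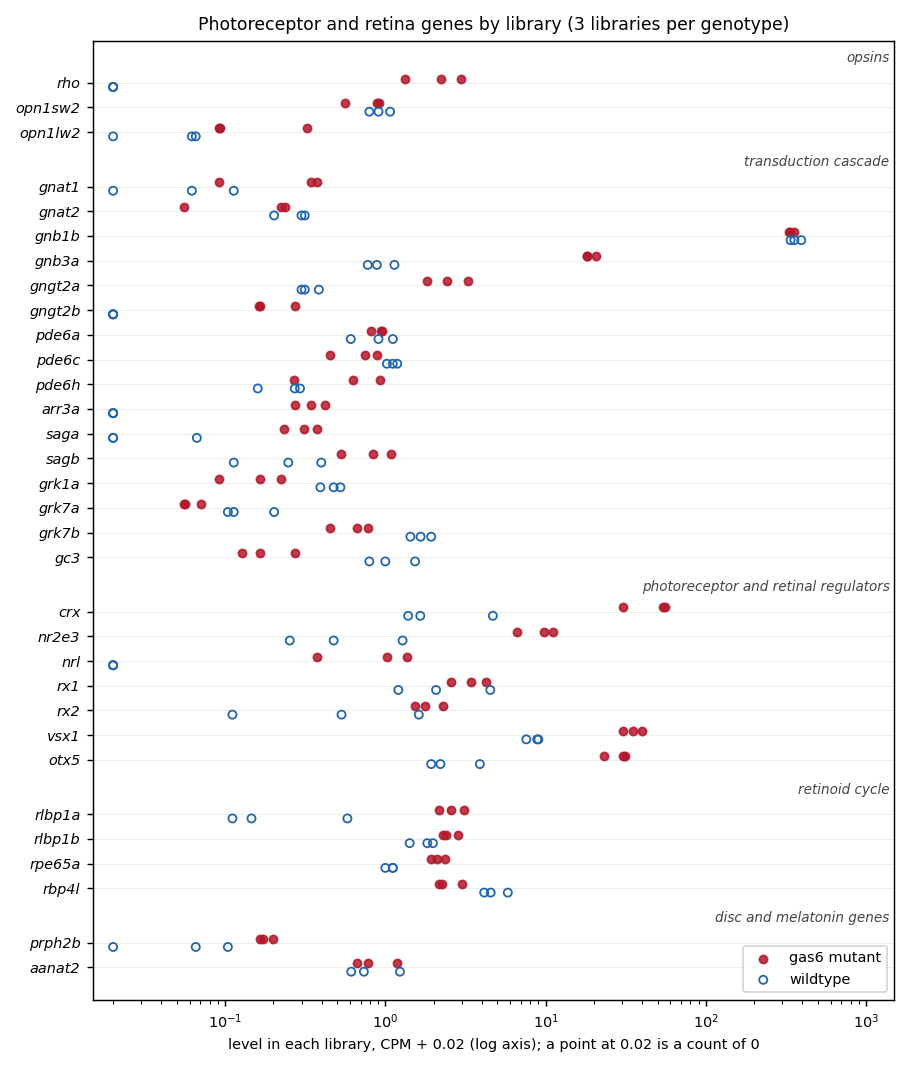
Level of each of the 32 listed members (rows, by role) in each library as CPM plus 0.02 on a log axis, with filled red points for the 3 *gas6* mutant libraries, open blue points for the 3 wildtype libraries, and a count of 0 drawn at 0.02. Red points lie right of all blue points for *rho*, *gnb3a*, *crx*, *otx5* and *nr2e3* and left of them for *grk7b*, *gc3* and *rbp4l*, while the colours mix for *opn1sw2*, *pde6a* and *aanat2*.

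Transducin couples opsin to the phosphodiesterase. *gnb3a*, a transducin beta subunit whose paralog *gnb3b* had no row, had 356, 573 and 502 counts in mutants against 19, 18 and 24 in wildtype. The lowest mutant library was far above the highest wildtype library. It was 20.7-fold higher (log2 fold change 4.37, SE 0.18, adjusted p = 5.71e-08, edgeR), at 18.9 ± 1.37 CPM in mutants and 0.913 ± 0.186 CPM in wildtype (SD, n = 3 each). The gene *gngt2a*, a cone gamma subunit, had 64, 67 and 50 counts in mutants against 8, 7 and 6 in wildtype. No mutant library overlapped the wildtype range. The level was 7.74-fold higher in mutants (log2 fold change 2.95, SE 0.34, adjusted p = 6.81e-05, edgeR).

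The paralog *gngt2b* had 5, 4 and 4 counts in mutants and 0, 0 and 0 in wildtype, 3.87-fold higher against the floor of 3 counts. It did not pass the filter and was called without it (adjusted p = 0.0147, edgeR). Alpha subunits were close to the limit of detection. *gnat1*, the rod alpha subunit, had 7, 2 and 9 counts in mutants against 0, 1 and 2 in wildtype, a ratio of 5.35 with a 95% exact counting interval of 1.56 to 28.4. Without the filter it was not called (adjusted p = 0.0755). For *gnat2*, the cone alpha subunit, the counts were 4, 1 and 6 in mutants against 4, 7 and 6 in wildtype, with no call (adjusted p = 0.399 without the filter). The beta subunit *gnb1b*, which many cell types use besides rods, was at 340 ± 13.1 CPM in mutants and 363 ± 28.4 CPM in wildtype (SD, n = 3 each). This widely expressed subunit was not called (log2 fold change -0.09, SE 0.10, adjusted p = 0.509), so among the beta subunits listed only *gnb3a* was called.

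None of the listed phosphodiesterase members, *pde6a*, *pde6c* and *pde6h*, was called with or without the filter. *pde6a*, the rod catalytic alpha subunit, had 18, 26 and 22 counts in mutants against 24, 14 and 19 in wildtype (log2 fold change 0.04, SE 0.31, adjusted p = 0.93). *pde6c*, the cone catalytic subunit, had 17, 12 and 20 counts in mutants against 22, 26 and 25 in wildtype. Its CPM ranges did not overlap, with mutants below, but the log2 fold change of -0.72 (SE 0.32) missed the threshold (adjusted p = 0.104, edgeR). *pde6h*, the inhibitory subunit of cones, had 12, 7 and 25 counts in mutants against 6, 6 and 3 in wildtype and did not pass the filter (adjusted p = 0.0779 without it).

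Arrestins cap the activated opsin. *arr3a*, a cone arrestin, had 5, 9 and 11 counts in mutants and 0, 0 and 0 in wildtype, 7.44-fold higher against the floor. For *saga*, a rod arrestin (S-antigen), the counts were 7.1, 6 and 8.01 in mutants against 0, 0 and 1.01 in wildtype, a ratio of 18.7 with a 95% exact counting interval of 3.01 to 775. Neither arrestin passed the filter, and both were called without it (adjusted p = 0.00288 for *arr3a* and 0.0083 for *saga*, edgeR). The third arrestin, *sagb*, had 21, 23 and 14 counts in mutants against 5, 9 and 2 in wildtype. It was called at 3.25-fold higher (log2 fold change 1.70, SE 0.48, adjusted p = 0.0172), and this call was lost without mutant library 1 (adjusted p = 0.0603), mutant library 2 (0.0529) or wildtype library 3 (0.0595). All 3 listed arrestins thus had higher CPM in every mutant library than in any wildtype library, beside 23.8% of all genes.

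For the listed opsin kinases and the cyclase, all mutant CPM values lay below all wildtype values, beside 22.9% of all genes. Of these 4 genes 3 were called lower without the filter. *grk7b*, a cone opsin kinase, had 15, 18 and 12 counts in mutants against 31, 39 and 41 in wildtype. Every mutant library was below every wildtype library, and the gene fell by 1.45 on the log2 scale (SE 0.30, adjusted p = 0.00327, edgeR), to 0.613 ± 0.165 CPM in mutants against 1.65 ± 0.25 CPM in wildtype (SD, n = 3 each). *gc3*, a photoreceptor guanylate cyclase, had 4.73, 3 and 4 counts in mutants against 17, 36 and 20.74 in wildtype. It fell by 2.73 on the log2 scale (SE 0.45, adjusted p = 0.000779), having passed the filter only through the wildtype libraries. *grk1a*, a rod opsin kinase, was filtered out with 4, 2 and 4.11 counts in mutants against 10, 12 and 8.01 in wildtype, and was called lower without the filter (log2 fold change -1.70, adjusted p = 0.0277). *grk7a*, the other cone opsin kinase, had 1, 1 and 1 counts in mutants against 4, 2 and 2 in wildtype, a ratio of 0.335 with a 95% exact counting interval of 0.0572 to 1.39. Of the 16 listed cascade genes, 6 were called higher and 3 lower without the filter, beside 15.0% and 15.4% of all genes. Their median log2 fold change was -0.02 over the 8 tested genes and 0.70 over the 16 without the filter. The summed level, in which *gnb1b* had the largest part, overlapped at 355 to 382 CPM in mutants and 345 to 401 CPM in wildtype.

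Of the 7 listed transcription factors of photoreceptors and retina, 5 were called higher without the filter and none lower, beside 15.0% and 15.4% of all genes. *crx*, a homeobox gene of photoreceptor precursors and pineal cells, had 1092, 1516 and 839 counts in mutants against 30, 111 and 35 in wildtype. It rose in mutants (log2 fold change 4.17, SE 0.36, adjusted p = 8.79e-06, edgeR), at 46.6 ± 14.1 CPM in mutants and 2.55 ± 1.83 CPM in wildtype (SD, n = 3 each). Its relative *otx5*, best known from the pineal organ and photoreceptors, had 618, 847 and 637 counts in mutants against 48, 92 and 41 in wildtype. Here too the genotypes were far apart, at 28.2 ± 4.50 CPM in mutants and 2.65 ± 1.06 CPM in wildtype (log2 fold change 3.40, SE 0.23, adjusted p = 1.1e-06).

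The rod factors followed. *nr2e3*, a nuclear receptor of the rod lineage, had 192, 311 and 183 counts in mutants against 10, 30 and 5 in wildtype, a 13.7-fold higher level (log2 fold change 3.77, SE 0.38, adjusted p = 2.87e-05, edgeR). *nrl*, the leucine zipper factor that directs the rod fate in the mouse, had 7, 28 and 37 counts in mutants and 0, 0 and 0 in wildtype. Against the floor it was 21.4-fold higher. Since mutant library 1 held few counts, it missed the filter and was called without it (adjusted p = 0.000789, edgeR). Its mutant level varied between libraries, at 0.898 ± 0.500 CPM (SD, n = 3).

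*vsx1*, a homeobox gene of retinal bipolar cells that zebrafish also express in interneurons of the spinal cord, had 785, 974 and 844 counts in mutants against 194, 214 and 162 in wildtype. It was thus clearly present in wildtype hindbrains, unlike *rho* or *nrl*. The difference was 4.13-fold (log2 fold change 2.05, SE 0.13, adjusted p = 1.01e-06, edgeR). Neither *rx1* nor *rx2*, homeobox genes of the developing retina, was called. *rx1* had 67, 71 and 117 counts in mutants against 26, 107 and 44 in wildtype (log2 fold change 0.38, SE 0.37, adjusted p = 0.459), and *rx2* had 30, 49 and 63 counts in mutants against 2, 38 and 11 in wildtype (1.31, SE 0.53, adjusted p = 0.0781). Wildtype library 2 lay above all mutant libraries in CPM for *rx1* and within their range for *rx2*, and the ranges of both genes overlapped.

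Wildtype library 2 had the highest CPM of its genotype for all 6 regulators with counts in wildtype. Without it the log2 fold change was 4.94 for *crx* and 4.69 for *nr2e3*, and both *rx1* (1.06, adjusted p = 0.0211) and *rx2* (2.61, adjusted p = 0.00184) were called higher. Summed over the regulators the level was 142, 136 and 98.5 CPM in mutant libraries 1, 2 and 3 and 14.1, 24.9 and 13.9 CPM in wildtype libraries 1, 2 and 3.

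**Figure D3:**
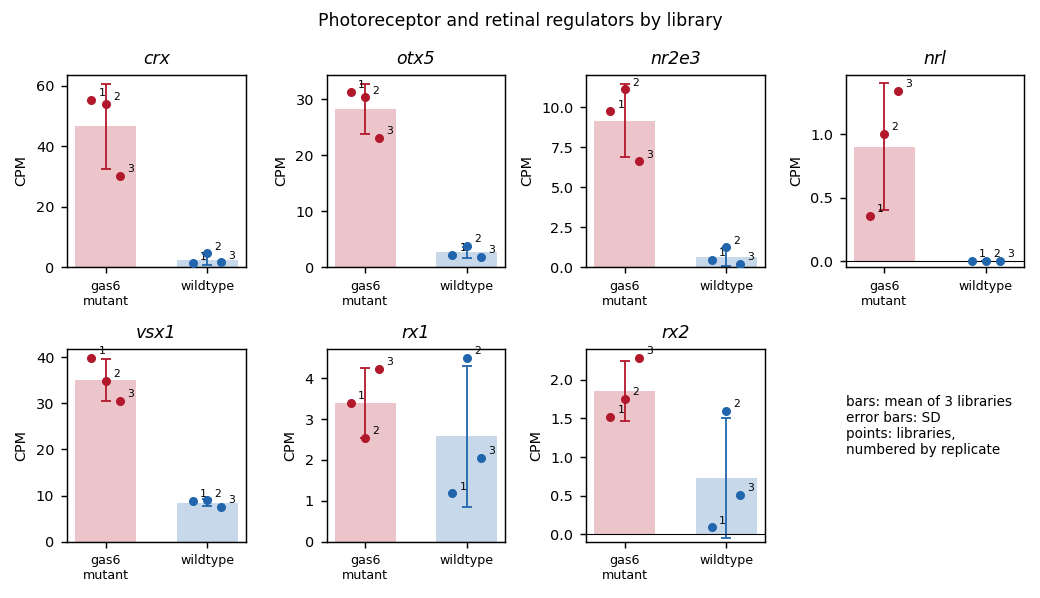
CPM of each regulator (y axis, 1 panel a gene, each with its own scale) in the *gas6* mutant libraries at left and the wildtype libraries at right, with points numbered by replicate and bars for the mean ± SD (n = 3). *crx*, *otx5*, *nr2e3* and *vsx1* show a wide gap between genotypes, and wildtype library 2 lies above the mutant points in *rx1* and among them in *rx2*.

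Of the 4 retinoid cycle members, 2 were called higher and 1 lower, beside 16.7% and 16.6% of all genes tested. *rlbp1a*, a retinaldehyde-binding protein of the pigment epithelium, had 50, 86 and 59 counts in mutants against 2, 3 and 12 in wildtype. The log2 fold change was 3.32 (SE 0.44, adjusted p = 0.000194, edgeR), and 4.49 without wildtype library 3, the library that held most of the wildtype counts. *rlbp1b*, its paralog of Müller glia, had 47, 79 and 63 counts in mutants against 43, 43 and 30 in wildtype. The CPM ranges did not overlap, with mutants above, but the log2 fold change of 0.54 (SE 0.22) was not called (adjusted p = 0.0842).

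*rpe65a*, which encodes a retinoid isomerase, was at 2.11 ± 0.204 CPM in mutants and 1.05 ± 0.0657 CPM in wildtype (SD, n = 3 each) and was called higher (log2 fold change 0.99, SE 0.23, adjusted p = 0.00671, edgeR). In contrast *rbp4l*, a purpurin-like retinol-binding protein, was at 2.46 ± 0.473 CPM in mutants and 4.81 ± 0.870 CPM in wildtype. It fell by 0.96 on the log2 scale (SE 0.21, adjusted p = 0.00468), with no overlap between the genotypes.

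Of the disc and melatonin genes, *prph2b*, a tetraspanin of the photoreceptor disc rim, had 3, 5 and 4 counts in mutants against 1, 2 and 0 in wildtype. This ratio of 3.57 had a 95% exact counting interval of 0.963 to 19.7, and the gene was not called without the filter (adjusted p = 0.145, edgeR). *aanat2*, the melatonin enzyme of the pineal organ, had 23, 18 and 21 counts in mutants against 13, 17 and 26 in wildtype, with a log2 fold change of 0.00 (SE 0.37, adjusted p = 0.997). The CPM ranges of *aanat2* overlapped, while all mutant values of *prph2b* lay above its wildtype values at a few counts each.

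Recoverin is a calcium sensor of photoreceptors, and a row under *rcv1*, an older name of *rcvrn2*, was read separately from the members. It had 94, 111 and 72 counts in mutants against 2.01, 3 and 5 in wildtype (log2 fold change 4.61, SE 0.39, adjusted p = 7.73e-06, edgeR). A row under the capitalised name *GUCA1A*, a guanylate cyclase activator, had 1, 2 and 4 counts in mutants against 5, 6 and 4 in wildtype and did not pass the filter.

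The other genes of the pathway, in 5 lists of 140 names also chosen with earlier results known, gave 88 listed and 68 tested genes. Of the tested genes 28 were called higher (23 by more than 2-fold), 9 lower (5 by more than 2-fold) and 31 not called. Over all genes tested 16.7% were called higher (6.06% by more than 2-fold) and 16.6% lower (3.59% by more than 2-fold). The median log2 fold change was 0.31 against 0.02 over all genes tested. Here too 12 of the 68 passed the filter only through mutants, among them *rcvrna*, *rs1a*, *arl3l1*, *foxq2*, *rx3*, *abca4b* and *rdh5* named below. 1 of the 68, *valopb*, passed only through wildtype. Without the filter 31 of the 88 listed genes were called higher and 8 lower, beside 15.0% and 15.4% of all genes. In phototransduction, 3 of 6 tested genes were called higher and none lower, led by *rcvrna*, another recoverin, and *pde6g*, an inhibitory phosphodiesterase subunit, which was at 2.98 on the log2 scale. *rcvrna* had 32, 40 and 29 counts in mutants against 0, 3 and 0 in wildtype, a ratio of 30.0 with a 95% exact counting interval of 9.99 to 148. Among genes of photoreceptor structure and synapse 11 of 18 were higher and 2 lower, led by *rs1a*, the retinoschisin gene, at 4.39 and *arl3l1*, a small GTPase gene of the Arl3 family, at 3.17, with *unc119a* (-1.45) and *crb2a* (-0.65) lower.

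Further photoreceptor regulators showed 9 of 15 higher and 2 lower, beside 16.7% and 16.6% of all genes tested. The leading genes were *foxq2* and *six7* (3.56), both known from cone photoreceptors of fish, while *nr2f6b* (-1.76) and the retinoid receptor gene *rxrga* (-1.18) were lower. *foxq2* had 10, 20 and 16 counts in mutants against 1, 1 and 1 in wildtype, a ratio of 13.7 with a 95% exact counting interval of 4.40 to 68.8. *rx3*, the retinal homeobox gene of the early eye field, named here after its values were seen, was also called higher (2.59, SE 0.32, adjusted p = 0.000129, edgeR). It passed the filter only through the mutant libraries, with 30, 48 and 39 counts in mutants against 6, 5 and 6 in wildtype. Of the 17 remaining retinoid cycle genes tested, 4 were called higher, 4 lower and 9 not called, shares not far from the 16.7% and 16.6% of all genes tested. The paralogs of the photoreceptor retinoid transporter differed in sign: *abca4b* was at 3.02 and *abca4a* at -1.40. *rdh5*, a retinol dehydrogenase of the pigment epithelium, was at 2.46, and *dhrs3b*, which reduces retinaldehyde, at -0.56.

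Genes of neighbouring tissues were read beside these results. Of 7 lens markers, 6 were listed and all 6 were called higher, with summed levels of 264 to 625 CPM in mutants and 0.865 to 22.6 CPM in wildtype. All 6 passed the filter only through the mutant libraries. The lens list as a whole had 19 of 20 tested genes higher, 18 of the 20 having passed only through mutants. Without the filter 21 of its 22 listed genes were called higher and none lower, beside 15.0% and 15.4% of all genes. Its leading genes were the crystallins *crygm2d1* (7.30 on the log2 scale) and *crygm2d3* (7.18). Mutant library 3 had the highest summed lens markers and the lowest summed photoreceptor regulators of the mutants, and among wildtype libraries the lens sum was highest in library 3 while the regulator sum was highest in library 2. The order of libraries was thus not the same for lens and for photoreceptor regulators. This describes 3 libraries per genotype and was not tested. For inner retina markers the sum was lowest of the mutants in library 3 (91.0 CPM), as for the regulators. Among wildtype libraries it was highest in library 2 (66.1 CPM), also as for the regulators. The other ends differed. The inner retina sum was highest of the mutants in library 2 and lowest of wildtype in library 1. The regulator sum was highest of the mutants in library 1 and lowest of wildtype in library 3. Pineal marker sums ranked the libraries of each genotype as the regulators did, but the regulator *otx5* is in both sums. In mutant libraries 1, 2 and 3 *otx5* was at 31.3, 30.3 and 23.1 CPM, within pineal sums of 41.7, 38.8 and 31.3 CPM. The shared order is therefore partly built in, and no conclusion is drawn from it. The part of eye tissue in the result was not tested.

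Inner retina markers (7 of 7 listed, 4 called higher and 1 lower) summed to 91.0 to 104 CPM in mutants and 53.0 to 66.1 CPM in wildtype. The wider inner retina list had 12 of 20 tested genes higher and 3 lower, beside 16.7% and 16.6% of all genes tested. *six6a* (2.33) and *six6b* (2.29) led, and *ptf1a* (-1.52) and *grm6a* (-1.12) were lowest on the log2 scale. Only *six6a* passed the filter through the mutant libraries alone. Without the filter 10 of the 20 genes were called higher and 3 lower. *ptf1a* also marks neuron progenitors of the hindbrain. Pineal markers, of which 5 of 6 were listed, 4 tested and 3 called higher, summed to 31.3 to 41.7 CPM in mutants and 6.81 to 8.57 CPM in wildtype. The member *otx5* alone gave a mean of 28.2 CPM in mutants and 2.65 CPM in wildtype. The wider pineal list had 3 of 7 tested genes higher and 1 lower, beside the same shares of all genes tested. *bsx*, which passed the filter only through mutants, was at 3.32. *tph2*, a serotonin synthesis enzyme, was at 0.82 and *gch2* at -1.06, while *aanat2* showed no difference (above). The mean level of *gch2* was 173 CPM in mutants and 360 CPM in wildtype, far above the summed pineal markers. Whether the *tph2* and *gch2* counts came from pineal cells was not tested.

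All 5 markers of pigment epithelium and melanophores were called lower, with sums of 915 to 1048 CPM in mutants and 1537 to 2024 CPM in wildtype. The wider pigment list had 10 of 12 tested genes lower, while *trpm1a* (1.02) and *pmelb* (0.66) were higher, beside 16.6% and 16.7% of all genes tested. The pigment epithelium genes *rlbp1a* (3.32) and *rdh5* (2.46), which passed the filter only through mutants, were also called higher (above). The 5 forebrain markers summed to 67.0 to 90.4 CPM in mutants and 63.0 to 78.6 CPM in wildtype. Of these 4 were tested and none was called, and 1 did not pass the filter. In contrast the wider forebrain list had 13 of 18 tested genes higher and 1 lower, beside 16.7% and 16.6% of all genes tested. Its summed level was 251 to 286 CPM in mutants and 180 to 189 CPM in wildtype, without overlap. *fezf2* (3.55) and *neurod6b* (2.81) led and *sp8a* (-0.49) was lower. Of the 13 higher genes, *six3a*, *six3b* and *lhx2b* are also in the inner retina list and *rx3* is also among the further photoreceptor regulators. In the forebrain list 3 tested genes, *fezf2* among them, passed the filter only through the mutant libraries. Without the filter 13 of its 19 listed genes were called higher and 1 lower. Of the 9 hindbrain markers 6 were called lower and none higher. The wider hindbrain list had 10 of 15 lower, beside 16.6% of all genes tested, with *egr2b* (-2.21) and *hoxb1a* (-1.41) leading, and only *olig2* (0.49) higher. No listed marker of the inner retina, lens, pineal, pigment, forebrain or hindbrain sets was at 0 in all libraries of a genotype. Among the members, *rho*, *nrl*, *arr3a* and *gngt2b* were at 0 in all wildtype libraries (above). The part of these tissues in the result was not tested.

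**Figure D4:**
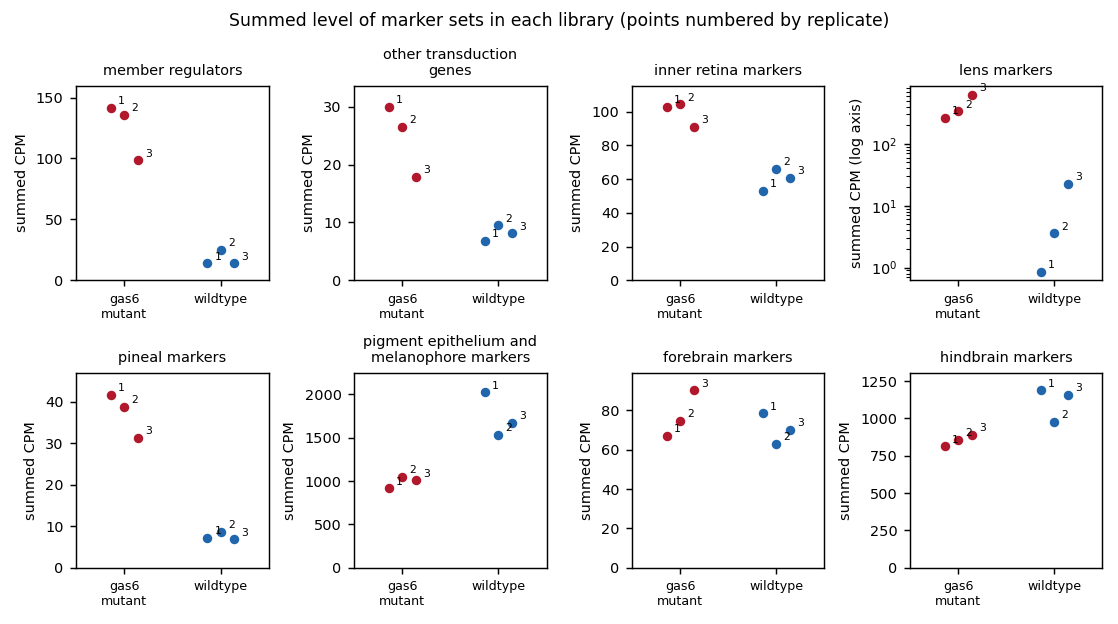
Summed CPM of the member regulators, of other transduction genes and of 6 sets of tissue markers (1 panel each, y axis, lens on a log axis) in the 3 *gas6* mutant libraries at left and the 3 wildtype libraries at right, with points numbered by replicate. Sums of regulators, other transduction genes, inner retina, lens and pineal markers lie higher in mutants, and those of pigment and hindbrain markers lie lower. Sums of the 5 forebrain markers overlap. The member transduction cascade and the wider tissue lists are not drawn.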

How the data were processed

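Stranded polyA libraries were made from pools of dissected hindbrains and analysed by the authors in the Dolphin web interface. The submitters' processing notes name FastQC, RSEM 1.2.28, DESeq2 and the builds GRCz10 and danRer7 without roles, and the aligner and annotation are not given in the sources used here. The authors deposited 1 table of estimated counts per gene and library, not normalized, in which 45.6% of genes (20 of the 32 listed members) held whole numbers in all libraries, and the lowest row total was 11. Its 3 columns of the authors' own comparison (fold change, log2 fold change and adjusted p) were not used.

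Groups and replicates came from the sample titles. Estimated counts were rounded, filtered with filterByExpr (minimum count 10, minimum total 15), scaled by TMM and fitted by edgeR 4.0.16 quasi-likelihood tests (R 4.3.3, limma 3.58.1) with genotype as the only factor and Benjamini-Hochberg adjustment over all genes tested. Calls needed an adjusted p under 0.05. The biological coefficient of variation was 12.5%, and libraries of a genotype differed by more than sampling noise (chi-square per degree of freedom 6.99 to 25.9). CPM used TMM-scaled library sizes. Ratios of low counts carry exact intervals, which cover counting error only. Folds against the floor of 3 counts take the mutant counts as exact, and the floor covers counting error in wildtype only.

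Members and lists (other opsins, phototransduction, structure and synapse, other regulators, other retinoid cycle, inner retina, lens, pineal, pigment, forebrain, hindbrain) were chosen with earlier results of these data known. All listed members are given. From each other list the 2 largest changes in each direction among called genes are named. Alternatives were DESeq2 1.42.0, RLE and upper quartile scaling, no filter, a replicate block, leaving out each library and, chosen after seeing the data, counting rows under older names.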

Additional observations from a re-analysis of the deposited data

How the results depend on the processing

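The number of members called was 13 (10 higher, 3 lower) and stayed between 12 and 15 when each library was left out in turn, with 9 to 12 higher and 3 lower each time. It was 18 without the filter (14 higher, 4 lower) and 14 under DESeq2 or with older names counted. Members called with more than 2-fold changes numbered 11, 10 to 15 with a library left out and 16 without the filter. The other pathway genes called numbered 37, 31 to 38 with a library left out. The median log2 fold change of 0.99 was 1.53 without the filter and 0.80 to 1.06 with a library left out, and that of *gas6* was -3.04 to -2.86. Signs turned only in members near 0. *pde6a* ranged from -0.19 to 0.26 with a library left out. *aanat2* was -0.0057 under RLE scaling, -0.0046 without the filter and -0.25 to 0.35 with a library left out. *rx2* was called under DESeq2 (adjusted p = 0.0493). Same-numbered libraries had correlations of deviations of -0.00, -0.11 and 0.01 across genes, so the numbers were not taken to pair the samples. With a replicate block 14 members were called (11 higher, 3 lower), *rx2* being added (adjusted p = 0.0279). Depth limits the 11 members that did not pass the filter, and 12 of the 32 listed members hold fractional counts, where reads of near-identical paralogs may be divided.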

Other observations

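Opsins outside rods and cones, which sense light in the brain and other tissues, were looked up as well. Of 30 such genes named, 17 were listed and 12 tested, of which 1 was called higher, 1 lower and 10 neither (adjusted p under 0.05, edgeR), beside 16.7% higher and 16.6% lower of all genes tested. *tmtops2a*, a teleost multiple tissue opsin, had 28, 31 and 31 counts in mutants against 11, 16 and 10 in wildtype (log2 fold change 1.13, SE 0.30, adjusted p = 0.0138). *valopb*, a vertebrate ancient long opsin, had 5, 11 and 10 counts in mutants against 13, 21 and 20 in wildtype (-1.21, SE 0.36, adjusted p = 0.0224). Both genes were thus detected in every library of both genotypes. *valopb* passed the filter only through the wildtype libraries, and it was also called lower without the filter (adjusted p = 0.0294, edgeR).

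The 12 tested genes of pigment epithelium and melanophores were all called, 10 lower and 2 higher in mutants, beside 16.6% lower and 16.7% higher of all genes tested. The melanin enzyme genes *tyrp1a* (-1.15) and *dct* (-1.14) had the largest falls on the log2 scale. *trpm1a*, a channel gene, was at 1.02 (39.92, 61 and 55 counts in mutants against 26, 19 and 23 in wildtype) and *pmelb*, a melanosome protein gene, at 0.66. The retinoid cycle members *rlbp1a* and *rpe65a* were called higher in the same libraries, *rlbp1a* having passed the filter only through mutants. Of the 17 other retinoid cycle genes tested, 4 were called higher, 4 lower and 9 not called. Pigment epithelium and skin melanophores share the melanin genes, so which of them these values come from cannot be told apart.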
